A study of Mus musculus with 4 samples.

Results

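The antioxidant enzyme genes examined here were Sod1, Sod2, Sod3, Gpx1, Gpx3, Gpx4, Cat, Prdx1, Prdx6 and Nqo1. They were chosen by name, and all 10 were found among the 22913 genes measured. RNA sequencing had been done on dermal white adipose tissue (dWAT), the fat layer that surrounds the lower ends of hair follicles, dissected under magnification from the skin of C57BL/6 mice. The 4 groups were OTD and YTD, from old (18 months) and young (2 months) mice in telogen, the resting phase of the hair cycle, and OAD and YAD, from old and young mice in anagen, the growth phase, which had been started by depilation. Only the anagen groups were depilated. Each group was 1 library, made from total RNA, and the study's methods give 20 mice per group, so the spread between mice is not known and no difference below carries a test or a p-value. The age field of the labels gives 18 months for YTD and 2 months for OAD, which goes against the titles of those samples, and the groups follow the titles.

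Superoxide forms when oxygen picks up a stray electron, mostly in mitochondria or at NADPH oxidases. Superoxide dismutases turn it into hydrogen peroxide, which catalase, glutathione peroxidases and peroxiredoxins reduce to water, the last of these families with thioredoxin or glutathione as the electron donor. In fat tissue the same enzymes also protect stored and membrane lipids from peroxidation.

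Values are FPKM, the fragments assigned to a gene corrected for its listed length and for the depth of its library. Listed lengths are coding lengths, and how fragments outside coding sequence were counted is not given, so levels of different genes compare only roughly. Ratios between genes and shares of a sum carry the same limit. A difference between libraries is given as a difference of log2(FPKM + 1), which understates the difference for genes with low values, and was counted past the threshold when it was at least 1 in size, about 2-fold. The depth was estimated at 20600000 to 23200000 fragments per library. For a ratio of FPKM, an exact 95% interval was computed from the estimated fragments, and it covers counting error only, not the spread between mice or libraries. The mitochondrial genome's own 13 genes took a share of the summed FPKM that was 52.7% for OTD, 44.7% for YTD, 18.3% for OAD and 14.4% for YAD. The labelled tissue was checked against 15 adipocyte markers, all of them above 0 in every library. As 16538 (YTD) to 17089 (YAD) genes were above 0 in a library, this check cannot tell the tissue apart from others. The 15 skeletal muscle markers were also above 0 in every library, with a higher summed level. This was so although the study states that the muscle sheet of the skin was taken off before the dWAT was scraped free.

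All 10 antioxidant enzyme genes had lower FPKM in anagen than in telogen dWAT, in young and in old mice, with 1 exception, Prdx1 in young mice, when the values were scaled to TPM so that every library sums to the same total. Of the 10, 8 were lower past the threshold in YAD than in YTD, where 16.7% of the 17622 genes above 0 in these libraries were lower by that much. In old mice 7 were lower past the threshold in OAD than in OTD, where the share of all genes was 15.6%. Their median change was -1.57 on the log2(FPKM + 1) scale in young and -1.45 in old mice, while the medians of all genes were 0.02 and 0.01. The 10 genes lie above most others in level, and among the 6609 genes with a mean FPKM no lower than that of Nqo1, the lowest of them, 25.2% were lower past the threshold in young and 19.8% in old mice. With age the same genes differed less. None was past the threshold in either phase, with medians of 0.10 in telogen and 0.15 in anagen.

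**Figure D1:**
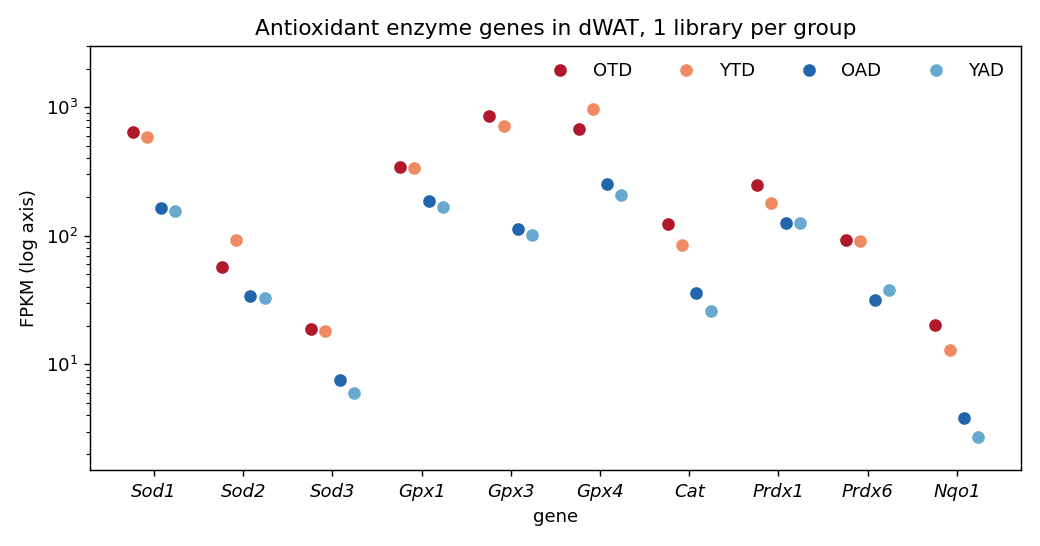
FPKM (log axis) of the 10 antioxidant enzyme genes in the 4 dWAT libraries, 1 point per library. For each gene both telogen points (red, orange) lie above both anagen points (blue), and the distance from the lower telogen point to the higher anagen point is widest for Gpx3 and narrowest for Prdx1.

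The superoxide dismutases were led by Sod1, the cytosolic copper and zinc enzyme, on chr16:90220742-90226322 (GRCm38, + strand). Its level was 647 FPKM in OTD and 584 in YTD, against 165 in OAD and 156 in YAD. The telogen libraries were both high and the anagen libraries both low, with a level in YTD 3.73-fold (counting interval 3.53 to 3.94) that in YAD and a level in OTD 3.93-fold (3.73 to 4.14) that in OAD. Ccs, which loads copper onto this enzyme, did not follow it, with 21.4, 20.4, 25.1 and 23.96 FPKM in the same order of libraries. The ratio of Sod1 to Ccs FPKM was therefore 30.3 and 28.6 in the telogen libraries and 6.57 and 6.53 in the anagen libraries.

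Sod2, the manganese enzyme of mitochondria (chr17:13007839-13018119, + strand), had 56.7 FPKM in OTD and 92.6 in YTD, against 34.0 in OAD and 32.6 in YAD. It was highest in YTD alone, and the anagen libraries differed little from each other. In young mice it was 2.84-fold (2.56 to 3.16) lower in anagen, and in old mice 1.67-fold (1.49 to 1.86) lower, which is a change of -0.72 and under the threshold. Sod3 (chr5:52363946-52371405, + strand), the secreted enzyme of the extracellular space, was the lowest of the family, with 18.9, 18.1, 7.56 and 5.99 FPKM. It too was high in telogen at both ages and lower in anagen, by 3.03-fold (2.41 to 3.84) in young and 2.50-fold (2.03 to 3.08) in old mice. Sod1 FPKM were 11.4 and 6.30 times those of Sod2 in OTD and YTD, and 4.85 and 4.80 times in OAD and YAD.

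The glutathione peroxidases Gpx1, Gpx3 and Gpx4 carry selenocysteine in the active centre, which is written in the messenger as TGA, elsewhere a stop codon. They are the only genes of the 10 whose annotated coding sequence held a TGA inside the reading frame, 1 in each. The codon is shown in capitals with 21 coding bases on either side, because it is the feature that sets these 3 apart from the other 7, all read on the + strand of GRCm38 (GENCODE M21).
Gpx1, codon 47, exon 1, chr9:108339430-108339474: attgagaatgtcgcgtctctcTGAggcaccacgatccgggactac
Gpx3, codon 73, exon 2, chr11:54907235-54907279: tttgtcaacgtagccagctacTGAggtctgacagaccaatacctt
Gpx4, codon 129, exon 3, chr10:80054716-80054760: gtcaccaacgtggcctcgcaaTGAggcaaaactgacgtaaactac

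These 3 genes included the largest phase difference of the 10 and also one of the smallest. Gpx3, the secreted peroxidase of plasma (chr11:54902453-54910377), had 847 FPKM in OTD and 709 in YTD, against 113 in OAD and 101 in YAD. It was the most abundant of the 10 in OTD and showed the largest phase difference at both ages, 6.99-fold (6.63 to 7.38) lower in YAD than in YTD and 7.47-fold (7.11 to 7.86) lower in OAD than in OTD. Gpx4 (chr10:80053488-80056439), which reduces lipid hydroperoxides within membranes, had 672 FPKM in OTD and 964 in YTD, against 255 in OAD and 207 in YAD. It was the most abundant of the 10 in the other 3 libraries. Its phase difference was 4.65-fold (4.48 to 4.82) in young and 2.64-fold (2.55 to 2.73) in old mice.

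Gpx1 (chr9:108339054-108340343), the main cytosolic glutathione peroxidase, had 344, 337, 187 and 169 FPKM in OTD, YTD, OAD and YAD. The telogen libraries were again higher, but by less. Its change from telogen to anagen was -0.995 in young mice, just short of the threshold, and -0.87 in old mice. Gpx3 FPKM were 2.47 and 2.10 times those of Gpx1 in OTD and YTD, and 0.607 and 0.602 times in OAD and YAD, so the order of these 2 genes differed between the phases at both ages.

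Cat encodes catalase, which breaks down hydrogen peroxide in peroxisomes (chr2:103453849-103485160, - strand). Its level was 124 FPKM in OTD and 85.3 in YTD, against 35.6 in OAD and 26.2 in YAD. Both telogen libraries stood above both anagen libraries, and within each phase the old library stood above the young one. It was 3.25-fold (3.02 to 3.50) lower in anagen in young and 3.48-fold (3.27 to 3.71) lower in old mice.

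Prdx1 (chr4:116685544-116700822, + strand), a cytosolic peroxiredoxin that draws on thioredoxin, had 250 FPKM in OTD and 179 in YTD, against 127 in OAD and 126 in YAD. It showed the smallest phase difference of the 10 in young mice, 1.42-fold (1.34 to 1.52), and in old mice the difference was 1.97-fold (1.86 to 2.09) and also short of the threshold. Prdx6 (chr1:161240112-161251219, - strand), which uses glutathione and can reduce phospholipid hydroperoxides, had 92.1, 91.3, 31.9 and 37.5 FPKM. Its telogen levels were almost equal, and it was 2.43-fold (2.20 to 2.69) lower in YAD and 2.89-fold (2.61 to 3.21) lower in OAD than in telogen of the same age. It was the only one of the 10 with a lower level in OAD than in YAD.

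Nqo1, a quinone reductase and a standard target of the transcription factor NRF2, was the least abundant of the 10 in anagen (chr8:107388225-107403206, - strand). It had 20.1 FPKM in OTD and 12.9 in YTD, against 3.79 in OAD and 2.72 in YAD. The order of the 4 libraries was the same as for Cat, and also as for Sod1, Sod3, Gpx1, Gpx3 and Prdx1. The phase difference of Nqo1 was 4.75-fold (3.47 to 6.54) in young and 5.31-fold (4.10 to 6.90) in old mice. About 51 fragments stood behind the YAD value, the fewest for any of the 10 in any library, against 15101 for Gpx4 in YTD.

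NRF2 binds antioxidant response elements, whose core is TGACNNNGC. Of the 8 genes among the 10 with a promoter window in RefSeq (GRCm38.p6, 250 bases before to 50 after the start), Sod1 and Prdx1 held these letters on either strand, beside 14% of all 27025 genes with a window and 12.4% of all 32851 windows of that length. Their matches, both on the strand opposite to the gene, are shown in capitals with 10 bases on either side, since the 10 genes differed in the same direction between phases and only these 2 hold the core in the window. Nqo1 had no match in its window.
Sod1, 56 bases before the start, chr16:90220696-90220724: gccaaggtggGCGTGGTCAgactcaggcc
Prdx1, 133 bases before the start, chr4:116685456-116685484: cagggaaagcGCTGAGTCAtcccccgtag

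Of 40 other listed genes with a window, 9 held the same letters, G6pdx, Gclm, Ggt1, Mafg, Me1, Nfe2l2, Pgd, Srxn1 and Txnrd1. Sod1 and Prdx1 were lower in anagen, while Txnrd1 and G6pdx were higher, so genes with the core lay on both sides. The match is a description of these letters and not of binding.

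The values of Sod1, Gpx4 and Prdx1 are uncertain for another reason. The coding sequence of Sod1 matched Gm8566 at 97.8% identity, that of Gpx4 matched Gpx4-ps2 at 99.6% over 67.2% of its length, and that of Prdx1 matched Gm21399 at 98.3%. None of these near copies was analysed here, and how reads shared with them were assigned is not given in the sources used here. Sod1 also overlaps Scaf4 on the opposite strand in GENCODE, and whether fragments were counted by strand is not given. Scaf4 had 4.53, 4.85, 11.4 and 12.2 FPKM in OTD, YTD, OAD and YAD, the reverse of the order seen for Sod1.

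Old and young dWAT were then compared within each phase, which was the question the study set out to ask. In telogen 8 of the 10 genes were higher in OTD than in YTD and 2, Sod2 and Gpx4, were lower. Of all genes 45.8% were higher and 54.1% lower, with a median change of -0.03. Among the 6609 genes with a mean FPKM no lower than that of Nqo1, the median was -0.17. None of the 10 was past the threshold, beside 1.67% of 17230 genes higher and 1.93% lower. The 3 largest positive changes were 0.60 for Nqo1, 0.54 for Cat and 0.48 for Prdx1 on the log2(FPKM + 1) scale. As ratios of FPKM these were 1.55-fold (1.31 to 1.84), 1.46-fold (1.39 to 1.53) and 1.40-fold (1.32 to 1.48). Sod2 was 1.63-fold (1.496 to 1.786) and Gpx4 1.43-fold (1.40 to 1.47) lower in OTD. For Sod3, Gpx1 and Prdx6 the counting interval of the ratio included 1.

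In anagen 9 of the 10 were higher in OAD than in YAD and Prdx6 was lower, but in TPM 4 were higher and 6 lower. On the FPKM scale 50% of all genes were higher and 49.9% lower. The median of the 6609 more abundant genes was 0.03. Again none was past the threshold, beside 0.727% of 17613 genes higher and 0.454% lower. Cat had the largest change, 0.43, and its ratio was 1.36-fold (1.25 to 1.48). The change was 0.36 for Nqo1 and 0.29 each for Sod3 and Gpx4. The counting interval included 1 for 5 genes, Sod1, Sod2, Sod3, Prdx1 and Nqo1. The median of 0.15 became -0.08 in TPM, where the median of all genes was -0.16. Cat, Nqo1, Gpx4 and Sod3 remained higher in OAD after scaling to TPM.

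**Figure D2:**
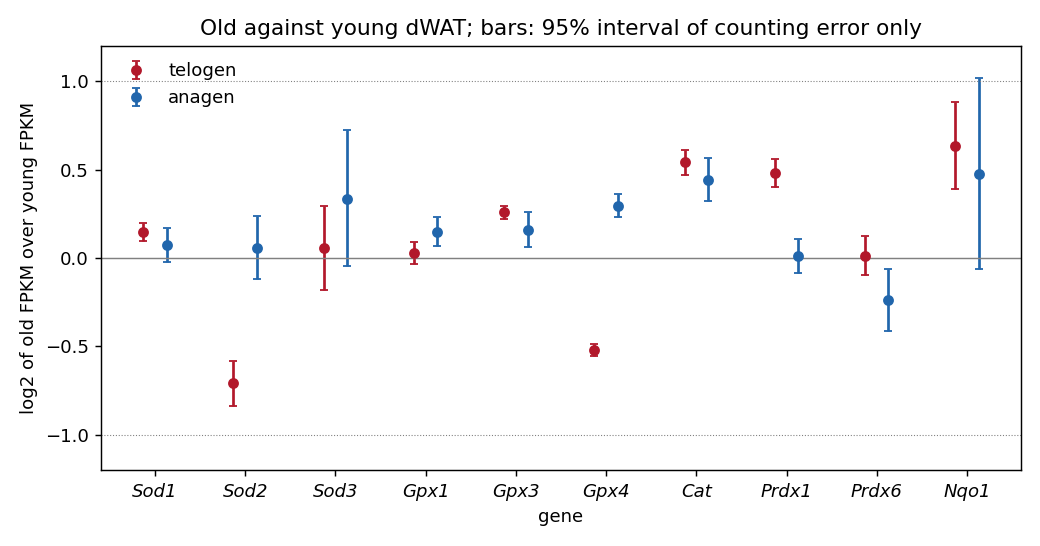
Log2 of the ratio of FPKM in old to young dWAT for the 10 genes, in telogen (OTD over YTD, red) and anagen (OAD over YAD, blue), with bars for the 95% interval of counting error only and dotted lines at 1 and -1. No point passes a dotted line, and Sod2 and Gpx4 lie below 0 in telogen and above 0 in anagen. Sod1, Sod3, Gpx1, Gpx3, Cat, Prdx1 and Nqo1 lie above 0 in both phases.

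The summed level of the 10 genes was 3072 FPKM in both OTD and YTD, 959 in OAD and 864 in YAD. As a share of the summed FPKM of all genes in the library, it was 0.246% and 0.247% in the old and young telogen libraries and 0.118% and 0.125% in the old and young anagen libraries. With the mitochondrial genome's genes left out of the total, these shares became 0.520%, 0.446%, 0.144% and 0.146%, so the gap between the phases was wider. The direction was also kept after scaling to TPM, except that Prdx1 was then higher in YAD than in YTD by 0.33. In TPM 4 of the 10 were lower past the threshold in young mice (Sod1, Gpx3, Gpx4 and Nqo1) and 4 in old mice (Sod1, Gpx3, Cat and Nqo1). All-gene medians were 0.45 and 0.32 in TPM, and relative to them the medians of the 10 genes were -1.22 and -1.16.

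Shares within the sum do not depend on the scaling between libraries. Gpx3 made up 27.6% of the summed level of these genes in OTD and 23.1% in YTD, but 11.8% in OAD and 11.7% in YAD. Gpx1 and Prdx1 went the other way, from 11.2% and 11.0% to 19.5% in each anagen library for Gpx1, and from 8.13% and 5.82% to 13.2% and 14.5% for Prdx1. The share of the 3 superoxide dismutases together was nearly level, at 23.5%, 22.6%, 21.5% and 22.6% in OTD, YTD, OAD and YAD. Gpx4 took its largest share in YTD, 31.4%, against 21.9% in OTD.

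**Figure D3:**
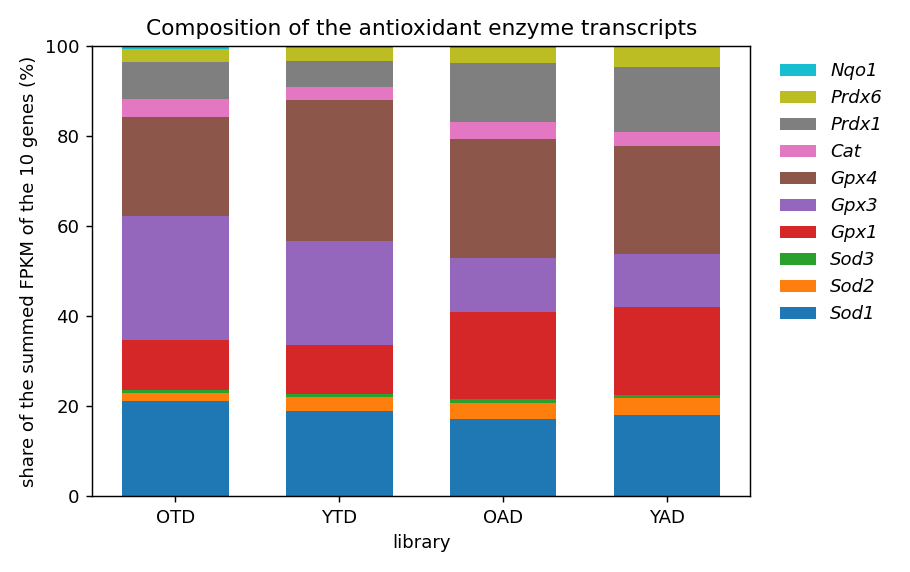
Share (%) of each gene in the summed FPKM of the 10 antioxidant enzyme genes, 1 bar per library. The Gpx3 segment (purple) is 27.6% and 23.1% in the telogen bars and 11.8% and 11.7% in the anagen bars, and the Gpx1 (red) and Prdx1 (grey) segments are wider in anagen.

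The 10 genes were set beside 90 other genes of the same pathways, of which 87 were above 0 in at least 1 library. From YTD to YAD 12 of these were higher past the threshold and 25 were lower, beside 16.1% of all genes higher and 16.7% lower, with a median change of -0.39, while in OAD against OTD the counts were 16 and 22 (all genes, 16.1% and 15.6%) and the median -0.21. Counts by list are on the FPKM scale, and these shares of all genes stand beside each of them. Scaling to TPM raised the median phase change of each of these lists. It turned the sign of the median from negative to positive for the thioredoxin and peroxisome lists at both ages and for the NADPH list in young mice. The other glutathione peroxidases and peroxiredoxins did not move as one group. Prdx3, the mitochondrial peroxiredoxin, and Gpx7 were lower past the threshold in anagen at both ages, by 1.93 and 1.63 in young mice on the log2(FPKM + 1) scale, and Gpx8 in old mice. Gpx2, the epithelial glutathione peroxidase, was higher past the threshold at both ages, with 2.49, 1.21, 15.8 and 6.77 FPKM in OTD, YTD, OAD and YAD.

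Prdx2, a cytosolic relative of Prdx1 with a high level in red blood cells, was the most abundant of the other peroxidases in mean level, although Prdx5 was higher in OTD and both Prdx5 and Prdx3 in YTD. It had 124, 149, 285 and 248 FPKM, higher in both anagen libraries, and was past the threshold in old mice only, at 1.19. Prdx2 FPKM were 0.497 and 0.831 times those of Prdx1 in OTD and YTD, and 2.25 and 1.97 times in OAD and YAD. The order of the 2 peroxiredoxins thus differed between phases at both ages. Of the red blood cell markers, 4 of 7 were lower past the threshold in YAD than in YTD, and in OAD against OTD 2 were lower and 1 higher past it, while in TPM none of the 7 was lower past it at either age. Their part in the level of Prdx2 was not tested.

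The enzymes that repair oxidized methionine were lower with the 10 genes. All 4, Msra, Msrb1, Msrb2 and Msrb3, were lower past the threshold in anagen at both ages, with medians of -2.26 in young and -1.62 in old mice (in TPM -1.44 and -1.02), and Msrb1 was the most abundant at 250.6, 400 and 97.3 FPKM in OTD, YTD and OAD and 77.4 FPKM in YAD. In the thioredoxin and glutaredoxin list, whose median in young mice was -0.49 and in TPM 0.28, Txnip, a binding partner of thioredoxin, was lower in anagen past the threshold at both ages and was also higher in OTD than in YTD, by 1.23. Txn2 and Glrx were lower past the threshold in young mice. Txnrd1, the cytosolic thioredoxin reductase, was higher at both ages, by 1.10 and 1.52, and Txn1, the most abundant of that list in mean level, had 173, 137, 202 and 194 FPKM.

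Glutathione synthesis and recycling went the opposite way. Of its 9 genes 8 were higher in anagen, beside 51.1% of all genes in young and 50.9% in old mice. At both ages 6 of them were past the threshold (Gclc, Gss, Slc7a11, Slc3a2, Chac1 and Ggt1, beside 16.1% of all genes at each age). The median change was 1.78 in young and 1.64 in old mice. Slc7a11 lay under 3 estimated fragments in YTD. Gclc, the catalytic subunit of the rate-limiting enzyme of glutathione synthesis, had 6.30, 5.06, 23.3 and 25.2 FPKM in OTD, YTD, OAD and YAD. The telogen libraries were low and the anagen libraries high, the reverse of Gpx1, Gpx3 and Gpx4, which consume glutathione. The most abundant gene of the list in mean level, Chac1, which degrades glutathione, had 33.6, 29.0, 175 and 102 FPKM.

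Of the 15 genes of the NRF2 list, 3 were higher past the threshold in anagen at both ages, namely Txnrd1, Gclc and Slc7a11. Of all genes 16.1% were higher past it at each age, and 16.7% in young and 15.6% in old mice were lower. The lists overlap, so these 3 genes are also counted above. Gclc, Gclm and Slc7a11 stand in the glutathione list too, and Txnrd1 and Srxn1 in the thioredoxin and glutaredoxin list. Ephx1 was lower past the threshold at both ages and Nfe2l2, which encodes NRF2, in old mice, with 44.2, 27.2, 18.6 and 19.1 FPKM. The most abundant in mean level was Txnrd1, at 28.7, 36.3, 84.4 and 79.0 FPKM. Nqo1 had the larger negative change among these targets in young mice, -1.90 against -1.16 for Ephx1, while in old mice the values were -2.14 for both.

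Among the genes that supply NADPH, whose median in young mice was -0.13 and in TPM 0.70, G6pdx, the first enzyme of the pentose phosphate pathway, was higher past the threshold in anagen at both ages, by 2.46 and 2.36, Tkt in young and Pgd and Taldo1 in old mice. Idh2 and Nnt, both mitochondrial, were lower past it at both ages and Me1 in young mice, and Nnt was also higher in OAD than in YAD, at 9.66 against 2.91 FPKM. Taldo1 was the most abundant in mean level, at 121, 148, 260 and 201 FPKM. Of 14 sources of superoxide and peroxide, 8 were lower past the threshold at each age, beside 16.7% of all genes in young and 15.6% in old mice. In TPM 3 were lower past it in young and 8 in old mice, and the share of all genes in TPM is not reported here. On the FPKM scale Cybb, the catalytic subunit of the phagocyte NADPH oxidase, and its partners Cyba, Ncf1 and Ncf4 were among the 8 at both ages. So were Aox1 and Maob, and Nox4 in old mice. Nox1 was higher past the threshold in old mice. In telogen 13 of the 14 were higher in OTD than in YTD, with Cybb past the threshold at 8.47 against 3.53 FPKM. Of the macrophage markers 13 of 14 were also higher in OTD, with a median of 0.45, and their part in this was not tested.

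In the list on copper delivery and the making of selenoproteins, 9 of 11 genes were higher in anagen at both ages. Of all genes 51.1% in young and 50.9% in old mice were higher in anagen by any amount. The copper carriers Slc31a1 and Atp7a were past the threshold at both ages and Atox1 in old mice, while Sod1 and Sod3, which hold copper, were lower. Selenop, which carries selenium in plasma, was lower past the threshold at both ages, with 618, 323, 110 and 109 FPKM, and Pstk in young mice. The 14 peroxisome biogenesis genes had medians of -0.43 and -0.23 in the phase comparisons, closer to 0 than Cat, and of 0.35 and 0.28 in TPM. Pex13 was lower past the threshold at both ages and Pex19, the most abundant at 53.9, 73.2, 28.8 and 31.3 FPKM, in young mice. With age in anagen, Gpx2 and Nnt were the only genes of the 90 past the threshold, Gpx2 no longer in TPM, and in telogen Cybb and Txnip were.

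**Figure D4:**
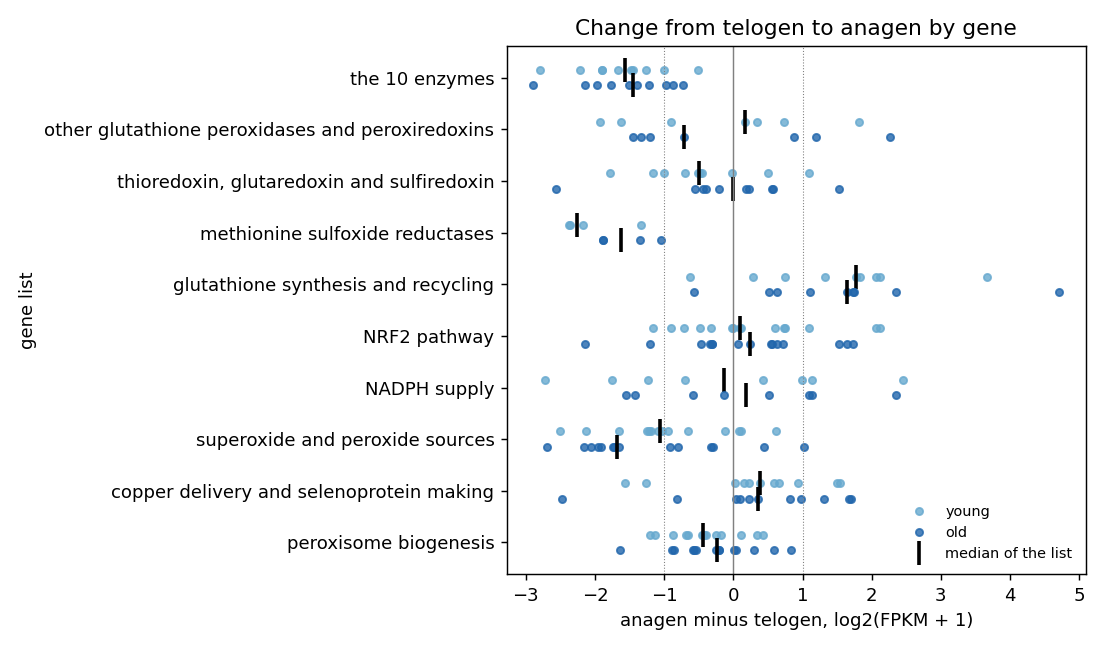
Anagen minus telogen difference of log2(FPKM + 1) for the 10 enzymes and 9 lists of related genes, 1 point per gene in young (light blue) and old (dark blue) mice, with a black bar at each list's median and dotted lines at 1 and -1. All points of the 10 enzymes and of the methionine sulfoxide reductases lie below 0, and the medians of glutathione synthesis and recycling lie at 1.78 and 1.64.

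Markers of other cells moved between the same libraries, and in bulk tissue fewer cells of a type and less RNA per cell cannot be told apart. All 15 adipocyte markers were lower in anagen at both ages, with medians of -1.77 in young and -1.65 in old mice. The medians were -1.43 and -1.74 for blood vessel lining markers and -1.39 and -2.05 for macrophage markers, beside -1.57 and -1.45 for the 10 enzyme genes. They were -3.06 and -2.09 for skeletal muscle markers and -2.44 and -2.02 for mitochondrially encoded genes. For fibroblast markers they were -1.12 and -2.75, and for erythrocyte markers -1.15 and -0.72. The medians of hair shaft, epidermis and melanocyte markers were higher in anagen at both ages. The summed level of the adipocyte markers was 13915 FPKM in OTD and 12952 in YTD, against 3846 in OAD and 2815 in YAD. Skeletal muscle markers, led by Acta1, summed to 74392, 116728, 17605 and 13360 FPKM in that order. All 15 were lower in OTD than in YTD, with a median of -0.65, the direction of Sod2 and Gpx4, and 12 of 15 were higher in OAD than in YAD, with a median of 0.25 (in TPM 8 of 15, median 0.02). The 10 blood vessel lining markers were lower in anagen at both ages. They were higher in the old library in both phases, with age medians of 0.54 and 0.30 (in TPM 7 of 10 were higher in OAD). On the FPKM scale Cat, Nqo1, Sod1, Sod3, Gpx1, Gpx3 and Prdx1 had this direction with age. Age medians were also positive in both phases for adipocyte, erythrocyte and neutrophil markers and for mitochondrially encoded genes. Hair shaft and matrix markers were higher in anagen and summed to 49.1 and 132 FPKM in OTD and YTD and to 12596 and 12688 FPKM in OAD and YAD. The part of these cells in the levels of the 10 genes was not tested.

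Other marker lists are given by their summed FPKM in OTD, YTD, OAD and YAD. Epidermis markers summed to 146, 210, 4284 and 3370, with Krt1 at 0 in YTD, and melanocyte markers to 25.8, 24.5, 480 and 780. Macrophage markers summed to 846, 517, 109 and 139 and fibroblast markers to 1579, 1140, 214 and 433. Erythrocyte markers summed to 749, 602, 367 and 226. Neutrophil markers summed to 139, 119, 142 and 59.4, with Mpo at 0 in every library and Ly6g at 0 in OTD, YTD and YAD.

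**Figure D5:**
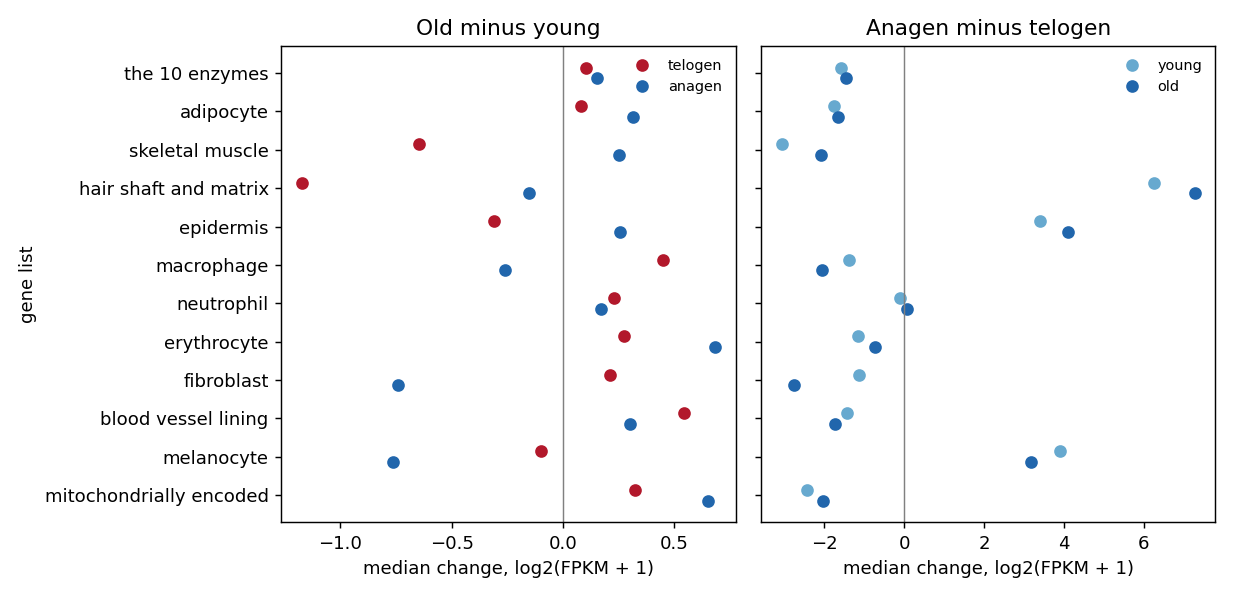
Median difference of log2(FPKM + 1) of the 10 enzymes, 10 marker lists and the mitochondrially encoded genes, for old minus young (left, telogen red and anagen blue) and anagen minus telogen (right, young light and old dark blue). On the right the enzymes lie at -1.57 and -1.45. The adipocyte, macrophage, blood vessel lining, skeletal muscle, fibroblast and erythrocyte markers and the mitochondrially encoded genes also lie below 0 there. On the left skeletal muscle lies at -0.65 in telogen and 0.25 in anagen.

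For each of the 10 genes, the genes with the most similar pattern were found among 11181 genes with at least 1 FPKM in all 4 libraries. The measure was the largest difference between the log2(FPKM + 1) values of 2 genes over the 4 libraries, each gene centred on its own mean. Nearest to Sod3 was Hadhb, at 0.01, with Cmklr1 next. Sod1 was nearest to Plcb4 and Hexa, Sod2 to Mmachc, Gpx1 to Myl12a and Olfm1, and Gpx4 to Rilpl1 and Dusp18. Cat was nearest to Papss2 and Tmem204, Prdx1 to Tatdn1 and Gne, Prdx6 to Ehd2 and Adgre5, and Nqo1 to Ctla2a and Icam2, all at 0.06 or less. Gpx3 had no gene so near, with Ly6a and Mbp at 0.13. Among the 10 themselves the closest pair was Cat and Nqo1, at 0.18, and Gpx3 stood farthest from the rest, at 0.51 from Sod1. With 4 libraries, these distances describe the patterns only.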

How the data were processed

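The study's authors sequenced total RNA (Trizol, RNA integrity number above 7.5 per the labels) on an Illumina platform and deposited FPKM for each gene, with its listed length and position. The submitters' processing notes name bcl2fastq, TopHat2 and GRCm38; the counting tool, the annotation and any scaling between libraries are not given in the sources used here. Of the listed lengths, 97.0% are multiples of 3, so they are coding lengths. Of 22166 Ensembl identifiers, 21750 were matched to a symbol.

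The deposited FPKM were used as they stand, with a pseudocount of 1. Genes above 0 in either library entered a comparison. The 4 comparisons were old against young within each phase and anagen against telogen within each age. Comparisons of age and of phase share libraries, so they are not independent of each other. No count test was used, since read counts were not used here and each group is 1 library. Depth was estimated from features of 2000 to 4000 bases, whose lowest values of FPKM times length (10 to 70) gather at 1 fragment, and is rough. Counting intervals are exact conditional binomial intervals (Clopper-Pearson). The steps were tested on simulated data that held counting error only. Changes larger than the threshold were planted in genes with many fragments, so this checks the arithmetic and says nothing about spread between mice.

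The 10 genes, the related lists and the marker lists were chosen with earlier results of these data known. Named in the text are the 10 genes, related genes past the threshold, the most abundant gene of a list, summed marker levels, and 2 nearest patterns for each of the 10. The background among the more abundant genes and the selenoprotein genes were added after the values were seen. Near copies were coding sequences with at least 95% identity over at least 50% of the length. Krt85, Flg and Ahsp were not analysed here, and some genes that these rules name are not reported here. Alternatives were pseudocounts of 0.1 and 0.01, a filter at an FPKM of 1, scaling by the median of ratios or to TPM, TPM without mitochondrially encoded genes or also without muscle, hair shaft and keratin-associated genes, and a 1.5-fold threshold. Python 3.11.15, numpy 2.4.6, pandas 2.3.3, scipy 1.17.1 and matplotlib 3.10.9 were used.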

Additional observations from a re-analysis of the deposited data

Results flagged for a closer look

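For 3 of the 10 genes the difference between old and young dWAT went one way in telogen and the other way in anagen. With 1 library per group this was not tested, and the count depends on the scaling: in TPM 6 genes went opposite ways, namely Gpx4, Prdx6, Sod1, Gpx1, Gpx3 and Prdx1. Gpx4 was lower in OTD than in YTD (-0.52 on the log2(FPKM + 1) scale) and higher in OAD than in YAD (0.29), and the telogen change minus the anagen change was -0.81. For Sod2 the changes were -0.70 and 0.06, a gap of -0.76, although the counting interval of its anagen ratio included 1. For Prdx6 they were 0.01 and -0.23, a gap of 0.24, and the counting interval of its telogen ratio included 1. In TPM Sod2 was lower in the old library in both phases. Skeletal muscle markers had medians of -0.65 in telogen and 0.25 in anagen (0.02 in TPM), and their part in the values of Sod2 and Gpx4 was not tested.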

How the results depend on the processing

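No replicates exist, so the values cannot be set against a spread between samples, and Nqo1 rests on 51 to 362 estimated fragments. No paired analysis was possible because each group holds 1 library and the labels carry no replicate numbers. In telogen the median age change of the 10 genes was 0.10 and became 0.32 in TPM without mitochondrially encoded genes, and at a 1.5-fold threshold 2 genes passed, Nqo1 higher and Sod2 lower. In anagen the median age change of 0.15 became -0.076 in TPM. In TPM the genes of the 10 past the threshold in the phase comparisons were 4 in place of 8 in young and 4 in place of 7 in old mice, and their medians were -0.77 and -0.84. In young mice the median was -1.38 in TPM without mitochondrially encoded genes and -1.40 when muscle, hair shaft and keratin-associated genes were also left out. In old mice it was -1.63 and -1.53, with 9 and 8 genes past the threshold in place of 7. Pseudocounts, the filter and the median of ratios changed no count of the 10 genes past the threshold. In each phase comparison all 10 genes stayed below the all-gene median under every setting.

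Counts over all genes moved more. In telogen 620 genes were past the threshold with age, and 2144 and 3445 with pseudocounts of 0.1 and 0.01, 2754 at 1.5-fold, and 958 without mitochondrially encoded, muscle, hair shaft and keratin-associated genes, where 64.7% of calls were higher in OTD against 46.3%. Without mitochondrially encoded genes alone 70.8% were higher. In anagen 208 genes were past it, and 1109 and 2435 with those pseudocounts, 875 at 1.5-fold, and 315 and 354 with the 2 sets of genes left out. Of these calls 61.5% were higher in OAD, against 37.3% in TPM, 41.9% and 43.5%. In the phase comparisons 5767 (young) and 5613 (old) genes were past it, 9761 and 9616 with a pseudocount of 0.01, and 9213 and 9009 at 1.5-fold. Calls higher in anagen were 49.1% and 50.8%, and 82.2% and 76.6% in TPM. The causes were not tested.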

Other observations

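Other genes for mitochondrial redox proteins were looked at after the values of Sod2 were seen. Prdx3, the mitochondrial peroxiredoxin, was lower in OTD than in YTD, at 119 against 161 FPKM, and so was Txn2, the mitochondrial thioredoxin, at 121 against 197 FPKM. The glutaredoxins Glrx2 and Glrx5 were also lower in OTD, by 0.50 and 0.67 on the log2(FPKM + 1) scale. None of these was past the threshold. The median of that comparison was -0.03 for all genes and -0.17 for the 6609 more abundant genes. In anagen all 4 were higher in OAD than in YAD, by 0.05 to 0.41 on the FPKM scale, while the all-gene median of that comparison was 0 as deposited and -0.16 in TPM. Idh2, the mitochondrial isocitrate dehydrogenase, was lower in OTD by 0.18, while Nnt was higher by 0.28 and the 13 genes of the mitochondrial genome were all higher, with a median of 0.32. Txnrd2, the mitochondrial thioredoxin reductase, was at 0 FPKM in every library.

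Gpx1, Gpx3 and Gpx4 belong to the 24 genes annotated with selenocysteine, a list also taken up after the values were seen. From YTD to YAD 22 of them were above 0, of which 9 were higher and 13 lower, with a median change of -0.47. Past the threshold, 7 were lower, namely Gpx3, Gpx4, Selenop, Selenow, Selenom, Selenot and Msrb1, and 4 were higher, namely Gpx2, Txnrd1, Selenoh and Dio3. Of all genes, 16.7% were lower and 16.1% higher past the threshold. In old mice the counts were 9 higher and 13 lower, with 3 and 6 past the threshold and a median of -0.47. The shares of all genes past the threshold in old mice were 16.1% higher and 15.6% lower. The selenoprotein genes therefore lay on both sides, and with age only Gpx2 in anagen was past the threshold, and not in TPM.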
